A study of Mus musculus with 56 samples.

Results

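Kidney transcripts were compared before and after a change of conditions that joined lights-off with the arrival of food. The comparison took the 4 libraries of nighttime-restricted feeding (NRF) at ZT16 and the 4 of NRF at ZT12, where ZT (zeitgeber time) counts the hours from lights-on. They are 8 of the 56 kidney libraries of the study, chosen by their labelled regimen and time alone. All mice were C57BL/6J females of 9 weeks on a 12-h light, 12-h dark cycle, and each library came from 1 mouse after 7 days of restricted feeding. NRF mice had food only in the dark, so that ZT12 closed the daily fast and ZT16 lay 4 h into both the dark phase and the meal. Mice on daytime-restricted feeding (DRF) had food only in the light and served as a reference in which lights-off and food arrival were apart. Between ZT12 and ZT16 they met the dark and the end of food, and between ZT0 or ZT24 and ZT4 they met food with lights-on. Within each regimen the lights and the food changed together, and their parts in a difference between such times cannot be told apart.

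As background, the mammalian clock is a loop in which BMAL1 (encoded by Arntl), with CLOCK or NPAS2, drives the genes of its own repressors, the period and cryptochrome proteins, and of REV-ERB alpha (Nr1d1), which holds Arntl down. Light sets the central clock of the brain, whereas the timing of meals is a strong cue for the clocks of peripheral organs. Feeding raises insulin, which keeps FOXO factors out of the nucleus and ends the transcription of genes for fuel sparing. The load of new secretory and membrane proteins in the endoplasmic reticulum (ER) is met by the unfolded protein response, whose factors ATF6 and XBP1 bind ER stress elements, and the load of unfolded cytosolic proteins and the daily rise of body temperature act through heat shock factor HSF1.

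The 8 libraries held 24.04 M to 25.30 M recovered reads. Levels are TPM (transcripts per 1 M transcripts of the genes used) on a linear scale, obtained from those reads, so that genes can be compared per length. Markers of the labelled tissue were present, and the summed level of 7 proximal tubule markers (such as Slc34a1 and Lrp2) was 8487 to 10676 TPM at ZT12 and 6888 to 9439 TPM at ZT16, with 0 of the 7 markers higher at ZT16 and 1 lower. Some libraries stood apart in markers of other tissue. The 6 adipose markers (Adipoq, Plin1, Cidec, Lep, Fabp4, Cfd) summed to 3498, 143, 389 and 46.3 TPM in replicates 1 to 4 of ZT12 and to 2179.7, 1123, 39.2 and 28.2 TPM in those of ZT16, against at most 445 TPM in the 20 DRF libraries used here. The 3 highest libraries were thus ZT12 replicate 1 and ZT16 replicates 1 and 2, and Plin1 and Lep were at 0 in ZT16 replicates 3 and 4. The 4 inner medulla markers (Slc14a2, Aqp4, Upk1b, Krt19) summed to 403, 59.9, 60.5 and 173 TPM at ZT12 and to 47.2, 429, 219 and 86.7 TPM at ZT16, with ZT12 replicate 1 and ZT16 replicate 2 highest. No tested marker of either list passed between the times. Counts given first below were therefore repeated without these libraries.

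**Figure D1:**
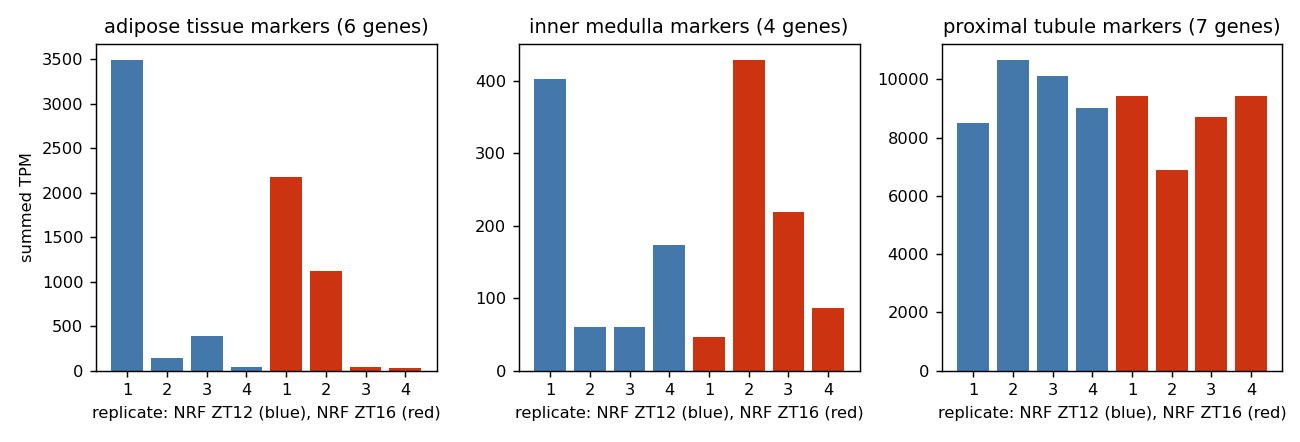
Summed level (TPM, linear axis from 0) of the adipose tissue, inner medulla and proximal tubule markers in each of the 4 NRF ZT12 (blue) and 4 NRF ZT16 (red) libraries, 1 bar per mouse. Adipose markers are high in ZT12 replicate 1 and ZT16 replicates 1 and 2, inner medulla markers in ZT12 replicate 1 and ZT16 replicate 2, and proximal tubule markers stay between 6888 and 10676 TPM.

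To ask how far the kidney transcriptome moved over these 4 h, 13609 genes with a mean of at least 1 TPM were tested on log2(TPM + 1) with limma, and an adjusted p under 0.05 was a call. A total of 4029 genes differed. Of these, 1661 were higher at ZT16 (12.2% of the genes tested) and 2368 were lower (17.4%). Most changes were small, since 63 genes rose and 73 fell by 2-fold or more and the median change over all genes tested was -0.01 on the log2 scale. The libraries of the 4 mice at each time did not overlap at all for 1160 genes higher at ZT16 (8.52%) and 2024 lower (14.9%). The split between rises and falls depended on the scaling, with 2271 higher and 2214 lower when libraries were rescaled by the median of ratios, and 2185 and 1875 when the deposited values were used as they stand. It was 1638 and 1574 without the 3 libraries high in adipose markers. In bulk kidney RNA, fewer cells of a type and less RNA per cell cannot be told apart.

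The gene with the largest rise was Sdf2l1 (chr16:17130138-17132383, gene span in GRCm38), which encodes an ER protein that assists the chaperone BiP. Its level in the single mice was 10.3, 10.6, 10.2 and 13.6 TPM at ZT12 and 102, 97.9, 111 and 125 TPM at ZT16. All ZT16 mice were far above all ZT12 mice, and the log2 change was 3.18 ± 0.19 (SE; adjusted p = 3.61e-17). Further genes of ER protein folding were among the 12 largest rises. Hspa5 (chr2:34771970-34777547), the gene of BiP itself, stood at 280.1, 249, 219.7 and 285 TPM at ZT12 and 947, 1179.9, 1248 and 1309 TPM at ZT16, a change of 2.17 ± 0.15 (adjusted p = 2.33e-15). Manf, which encodes a secreted ER stress protein, went from 33.8 ± 4.88 to 174 ± 13.9 TPM (SD, n = 4), Creld2 from 42.6 ± 3.52 to 209 ± 19 TPM and Hyou1, an ER chaperone of the HSP110 family, from 36.2 ± 4.71 to 144 ± 19.9 TPM. Pdia4, a protein disulfide isomerase, went from 123 ± 38.8 to 346 ± 44 TPM. For each of these 6 genes every ZT16 mouse was above every ZT12 mouse, which the choice of genes required.

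Other large rises were in genes outside the list of ER chaperones and unfolded protein response. Hmox1 (chr8:75093621-75100589), which encodes heme oxygenase 1, stood at 30.1, 32.5, 34.9 and 37.7 TPM at ZT12 and 84.4, 183, 287 and 406 TPM at ZT16. The groups did not overlap, but the ZT16 mice covered a wide span, and the change was 2.58 ± 0.34 (adjusted p = 6.93e-08). Genes of the cytosolic chaperone system rose: Hsp90aa1, the inducible HSP90, from 306 ± 73 to 937 ± 119 TPM, its partner Chordc1 from 17.7 ± 2.34 to 58.1 ± 5.76 TPM, and Hspa1a, an inducible HSP70, from 31.4 ± 19.8 to 104 ± 39.4 TPM. Hspa1a shares reads with its near-identical neighbour Hspa1b, so the split between them is uncertain. Nfil3, a repressor that opposes the clock output factor DBP, stood at 8.35, 14.5, 13.2 and 20.6 TPM at ZT12 and 38.4, 52.2, 59.9 and 38.2 TPM at ZT16. Muc19, a gel-forming mucin gene, went from 3.8 ± 1.32 to 19.8 ± 9.52 TPM. Over the 7 NRF times, 11 of the 12 genes were highest at ZT16 and 9 were lowest at ZT12, which the choice of large rises between these times favours. Nfil3 was the exception at the top, with its highest mean, 66 TPM, at ZT0.

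**Figure D2:**
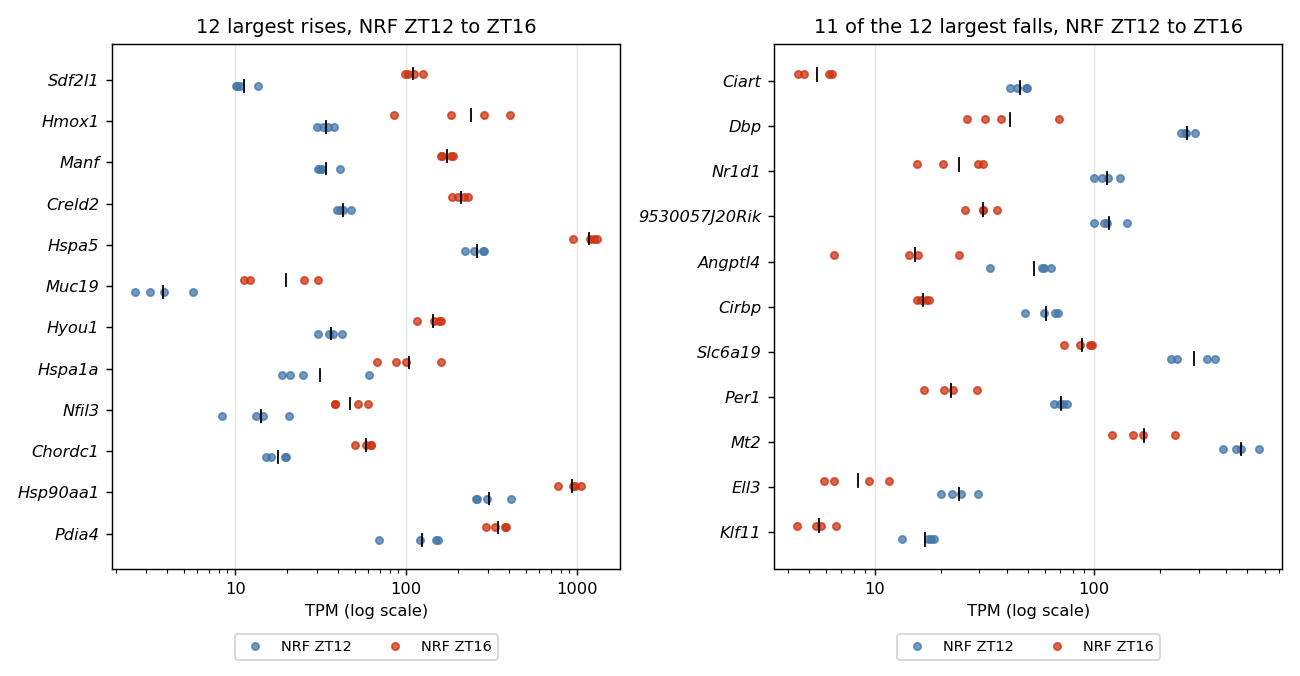
Level in each mouse (TPM, log axis) of the 12 genes with the largest rises (left) and 11 of the 12 with the largest falls (right), NRF ZT12 in blue and NRF ZT16 in red, with the mean of 4 mice as a black bar. The groups of 4 are apart for every gene, which was a condition of the choice, and Sdf2l1 and Ciart lead.

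Of the 23 genes tested in the list of ER chaperones and unfolded protein response, 22 rose and 0 fell, with a median log2 change of 1.06 against -0.01 over all genes. The luminal chaperones Hsp90b1 (383 ± 54.9 to 945 ± 146 TPM), Calr (626 ± 74.3 to 1301 ± 109.5 TPM) and Dnajb11 (72.1 ± 6.82 to 168 ± 15.6 TPM), the disulfide isomerases Pdia3 (525 ± 36.3 to 953 ± 88.8 TPM) and Pdia6 (106 ± 13.3 to 232 ± 18.3 TPM) and the degradation genes Syvn1 (34.8 ± 1.7 to 88.8 ± 10.1 TPM) and Derl3 (2.07 ± 0.404 to 8.26 ± 1.8 TPM) rose at the same time. Xbp1, the gene of one of the transcription factors of the response, rose by 0.83 ± 0.13. Herpud1, which takes part in ER-associated degradation, did not pass the test, with a change of -0.01 ± 0.13 (adjusted p = 0.959), from 656 ± 72.3 to 649 ± 40.1 TPM. The count was the same 22 and 0 without the libraries high in adipose markers and without those high in inner medulla markers.

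Because these genes moved together, their promoters were searched for the ER stress element (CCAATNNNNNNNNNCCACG, both strands) in RefSeq windows of 250 bases before to 50 after each annotated start (GRCm38.p6). The element was present for 9 of the 20 ER genes with a window (Calr, Canx, Creld2, Derl3, Dnajc3, Hsp90b1, Hspa5, Pdia6, Syvn1) and for 20 of all 10837 tested genes with one (0.185%). The windows below show 4 of the 9, 5′ to 3′ on the strand of the gene and upstream of a start, with the element or its reverse complement in capitals. In Creld2 it stands in the reverse orientation, and Hsp90b1 holds 1 copy in each orientation.
Hspa5, chr2:34772019-34772048, plus strand: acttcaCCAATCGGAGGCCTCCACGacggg
Creld2, chr15:88819510-88819645, plus strand: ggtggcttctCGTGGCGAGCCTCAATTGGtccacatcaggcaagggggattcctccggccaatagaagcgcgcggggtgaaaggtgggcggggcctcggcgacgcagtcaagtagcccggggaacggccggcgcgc
Syvn1, chr19:6046456-6046575, plus strand: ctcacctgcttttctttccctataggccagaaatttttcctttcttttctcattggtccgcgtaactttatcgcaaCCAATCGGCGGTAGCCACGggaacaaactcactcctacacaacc
Hsp90b1, chr10:86705510-86705666, minus strand: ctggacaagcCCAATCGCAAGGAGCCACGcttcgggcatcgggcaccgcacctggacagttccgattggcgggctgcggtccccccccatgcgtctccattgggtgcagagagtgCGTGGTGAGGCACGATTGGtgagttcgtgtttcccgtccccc
These are matches of letters and say nothing of binding. All 4 genes rose, by 2.17, 2.26, 1.32 and 1.30 on the log2 scale in that order. No window was at hand for Manf or Hyou1.

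Among 28 cytosolic and mitochondrial heat shock proteins, 24 genes rose and 0 fell, with a median log2 change of 1.01, where 12.2% of all genes tested rose. The count was also 24 without the libraries high in adipose markers. The constitutive HSP70 gene Hspa8 had the highest level of the list and went from 1807 ± 153 to 4868 ± 399 TPM, and Hsp90ab1, the constitutive HSP90, from 1099 ± 111 to 2347 ± 137 TPM. Their co-chaperones moved with small spread between mice: Ahsa1, which activates HSP90, stood at 39.98, 38.4, 38.1 and 44 TPM at ZT12 and at 93.6, 98.8, 92.9 and 96.4 TPM at ZT16, a change of 1.23 ± 0.07 (adjusted p = 6.52e-19). The HSP40 genes Dnaja1 and Dnajb1 rose by 1.42 and 1.04, and Stip1, which links HSP70 to HSP90, by 1.32. Hsf1, the gene of the heat shock factor, rose by 0.64. Mitochondrial members rose less (Hspd1 by 0.33, Hspe1 by 0.59), and Hspa9, the mitochondrial HSP70, had a change of 0.08 ± 0.06 (adjusted p = 0.289). The most inducible members were uneven at ZT12. Hspa1b stood at 150.5, 23.1, 26.3 and 34 TPM at ZT12 and 189, 352, 129 and 158 TPM at ZT16, so that ZT12 replicate 1, which was also the highest of the ZT12 mice in adipose and inner medulla markers, lay above the lowest ZT16 mouse, and the change was 2.16 ± 0.54 (adjusted p = 0.0015). The part of those tissues in this value was not tested.

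The heat shock element (GAANNTTCNNGAA or TTCNNGAANNTTC, both strands) was found in the windows of 4 of 21 heat shock genes (Chordc1, Hspd1, Hspe1, Hsph1), against 60 of 10837 (0.554%). Hspe1 and Hspd1, which encode the mitochondrial chaperonin pair HSP10 and HSP60, lie head to head and share this stretch, in which 2 overlapping elements are in capitals.
Hspe1, chr1:55088053-55088082, plus strand: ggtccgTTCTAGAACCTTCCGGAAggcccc

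The cold-inducible RNA-binding proteins, which are known to fall as temperature rises, went the other way. Cirbp (chr10:80165985-80172786) stood at 59.4, 66.3, 68.2 and 48.6 TPM at ZT12 and 15.5, 17.6, 16.2 and 17.1 TPM at ZT16, and the change was -1.79 ± 0.14 (adjusted p = 2.95e-14). Rbm3 went from 117 ± 6.73 to 78.1 ± 4.43 TPM, a change of -0.58 ± 0.10 (adjusted p = 1.25e-05). Body temperature was not among the measurements used here.

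The largest falls were in clock genes. Of the 12 genes with the largest falls, 6 had their lowest NRF mean at ZT16, 3 had their highest at ZT12 and 7 at ZT8, so that most were already below their peak when the dark and the food came. Nr1d1 had means of 219.8 TPM at ZT8 and 114 TPM at ZT12, and Angptl4, of the fasted state, of 109 and 53.4 TPM. Ciart (chr3:95878503-95882251), a repressor of CLOCK and BMAL1, stood at 49.6, 44.4, 48.8 and 41.5 TPM at ZT12 and 6.16, 6.35, 4.45 and 4.75 TPM at ZT16. Every ZT16 mouse was below every ZT12 mouse by a wide margin, and the log2 change was -2.88 ± 0.19 (SE; adjusted p = 1.02e-15). Dbp (chr7:45705088-45710203), the classic output factor of the clock, stood at 249, 262, 289 and 260.2 TPM at ZT12 and 69, 31.9, 26.4 and 37.6 TPM at ZT16, a change of -2.75 ± 0.32 (adjusted p = 5.58e-09). Nr1d1 (chr11:98767932-98775333) stood at 131, 100.4, 116 and 109 TPM at ZT12 and 29.5, 31, 15.6 and 20.4 TPM at ZT16, a change of -2.24 ± 0.25 (adjusted p = 1.83e-09). Per1 went from 70.7 ± 3.91 to 22.3 ± 5.21 TPM. Of the 10 clock repressors, 7 fell and 1 rose, where 17.4% of all genes tested fell and 12.2% rose. The one that rose was Cry1, from 15.8 ± 3.32 to 35.2 ± 4.62 TPM, and the values of Per2 and Bhlhe40 were 0.41 ± 0.18 (adjusted p = 0.0791) and 0.16 ± 0.16 (adjusted p = 0.509). Of 5 clock activators, 4 rose and 1 fell. Arntl went from 0.735 ± 0.549 to 6.6 ± 1.88 TPM (2.14 ± 0.18, adjusted p = 5.5e-13), with 3 of the 4 ZT12 mice under 1 TPM, and Clock and Npas2 rose by 0.64 and 0.63, while Rora fell by 0.39. Of the 4 clock output factors, Dbp, Tef and Hlf fell and Nfil3 rose, and the call of Hlf was lost without the libraries high in adipose markers (adjusted p = 0.137) and without those high in inner medulla markers (0.12).

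The E-box CACGTG, the site of CLOCK and BMAL1, was present in the windows of 4 of 8 clock repressors (Bhlhe41, Ciart, Cry1, Per1), against 11.4% of all tested genes with a window (1236). The stretches below hold 2 copies for Ciart and 1 each for Cry1 and Per1 (E-boxes in capitals). Ciart and Per1 fell and Cry1 rose, so genes with the same letters in the window differed in direction.
Ciart, chr3:95882262-95882291, minus strand: ggaggCACGTGcagaaccgCACGTGtctgg
Cry1, chr10:85185065-85185174, minus strand: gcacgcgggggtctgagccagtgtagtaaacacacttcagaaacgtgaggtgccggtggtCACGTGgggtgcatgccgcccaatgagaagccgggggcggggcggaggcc
Per1, chr11:69098771-69098800, plus strand: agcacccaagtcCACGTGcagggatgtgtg

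Genes of the fasted state fell as well. Angptl4 (chr17:33773750-33781830), an inhibitor of lipoprotein lipase, stood at 58.8, 33.7, 63.3 and 58 TPM at ZT12 and 14.3, 24.3, 15.8 and 6.54 TPM at ZT16, a change of -1.83 ± 0.42 (adjusted p = 0.000682). Of 29 genes of the fasting fuel switch, fatty acid oxidation and PPARA targets, 16 fell and 0 rose, with a median log2 change of -0.33. Among all genes tested 17.4% fell and 12.2% rose. Cpt1a, which admits fatty acids to the mitochondrion, went from 581 ± 33.2 to 314 ± 23.6 TPM with no overlap between mice, and Ppara itself from 246 ± 27.9 to 127 ± 14 TPM. Acadm, an acyl-CoA dehydrogenase of mitochondrial oxidation, did not pass (-0.10 ± 0.23, adjusted p = 0.797). The count was 11 without the libraries high in adipose markers and 12 without those high in inner medulla markers. Falls over all genes tested dropped too, from 2368 to 1574 and 1885 in that order.

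Of 18 insulin receptor and FOXO-responsive genes, 9 fell and 1 rose, with a median of -0.34. Igfbp1, which encodes a binding protein of insulin-like growth factors and is repressed by insulin, stood at 60.9, 67.2, 55.4 and 38.4 TPM at ZT12 and 26.1, 20.1, 23.5 and 20.2 TPM at ZT16, a change of -1.25 ± 0.22 (adjusted p = 1.6e-05). Txnip, an inhibitor of glucose uptake, went from 644 ± 101 to 326 ± 34.4 TPM, Foxo3 from 89.7 ± 5.66 to 48.3 ± 7.54 TPM and the insulin receptor gene Insr from 44.2 ± 3.49 to 34.6 ± 1.61 TPM. Depp1, a FOXO target, stood at 38.9, 33.5, 32.6 and 12.5 TPM at ZT12 and 3.32, 16.9, 6.99 and 4.85 TPM at ZT16, and ZT16 replicate 2 lay above ZT12 replicate 4. Cited2 was the gene that rose (0.44 ± 0.09, adjusted p = 0.000218). Of 13 autophagy genes, 7 fell and 1 rose: Wipi1, a protein of the forming autophagosome, went from 25.1 ± 4.36 to 11.2 ± 0.725 TPM, Gabarapl1 from 1512 ± 197 to 1017 ± 51 TPM and Ulk1, the kinase that starts autophagy, from 59.7 ± 3.36 to 43 ± 4.94 TPM, while Tfeb, a transcription factor of lysosome genes, rose by 0.31. Of 7 gluconeogenesis genes, Got1 rose (0.42 ± 0.07, adjusted p = 2.65e-06) and Pck2 fell (-0.35 ± 0.07, adjusted p = 4.55e-05), and Pck1, the abundant cytosolic enzyme of the pathway, had a change of -0.44 ± 0.21 (adjusted p = 0.115). With 1 gene each way, that count is near the shares over all genes tested (12.2% higher, 17.4% lower) and says nothing particular of the list.

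Genes of protein and lipid synthesis rose in part, where 12.2% of all genes tested rose and 17.4% fell. Of 20 cytosolic aminoacyl-tRNA synthetases, 10 rose and 2 fell, and Yars and Farsa rose by 0.56 and 0.43 while Qars and Lars fell by 0.37 and 0.50. In ribosome biogenesis, 12 of 26 rose and 3 fell, led by Nop2 (26.4 ± 0.857 to 42.5 ± 3.62 TPM) and Rrp12 (7.17 ± 0.836 to 13.3 ± 0.814 TPM), and Npm1 and Ncl, which encode abundant nucleolar proteins, were among those that fell, although only 1 fell without the libraries high in adipose markers. In the ATF4 and amino acid response, 6 of 18 rose and 1 fell, with Atf4 at 0.64 and Ddit3, the gene of CHOP, at 0.83. That count was 4 and 0 without the libraries high in adipose markers. Of 28 SR and hnRNP splicing factors, 11 rose and 5 fell, and of 31 proteasome subunits 7 rose and 1 fell. Among SREBP targets of cholesterol synthesis, 6 of 22 rose and 0 fell. They included Fdps, the gene of farnesyl diphosphate synthase (15.1 ± 1.67 to 23.7 ± 1.43 TPM), and Mvd, that of mevalonate diphosphate decarboxylase (58.9 ± 6.59 to 83.8 ± 7.83 TPM). Hmgcs1 (-0.02 ± 0.14, adjusted p = 0.925) and Insig1 (-0.09 ± 0.17, adjusted p = 0.73) did not pass. Of 9 SREBP targets of fatty acid synthesis, Scd2 (85.6 ± 20.4 to 176 ± 28.6 TPM) and Srebf1 (33.2 ± 10.9 to 56.5 ± 9.58 TPM) rose and the others did not pass.

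**Figure D3:**
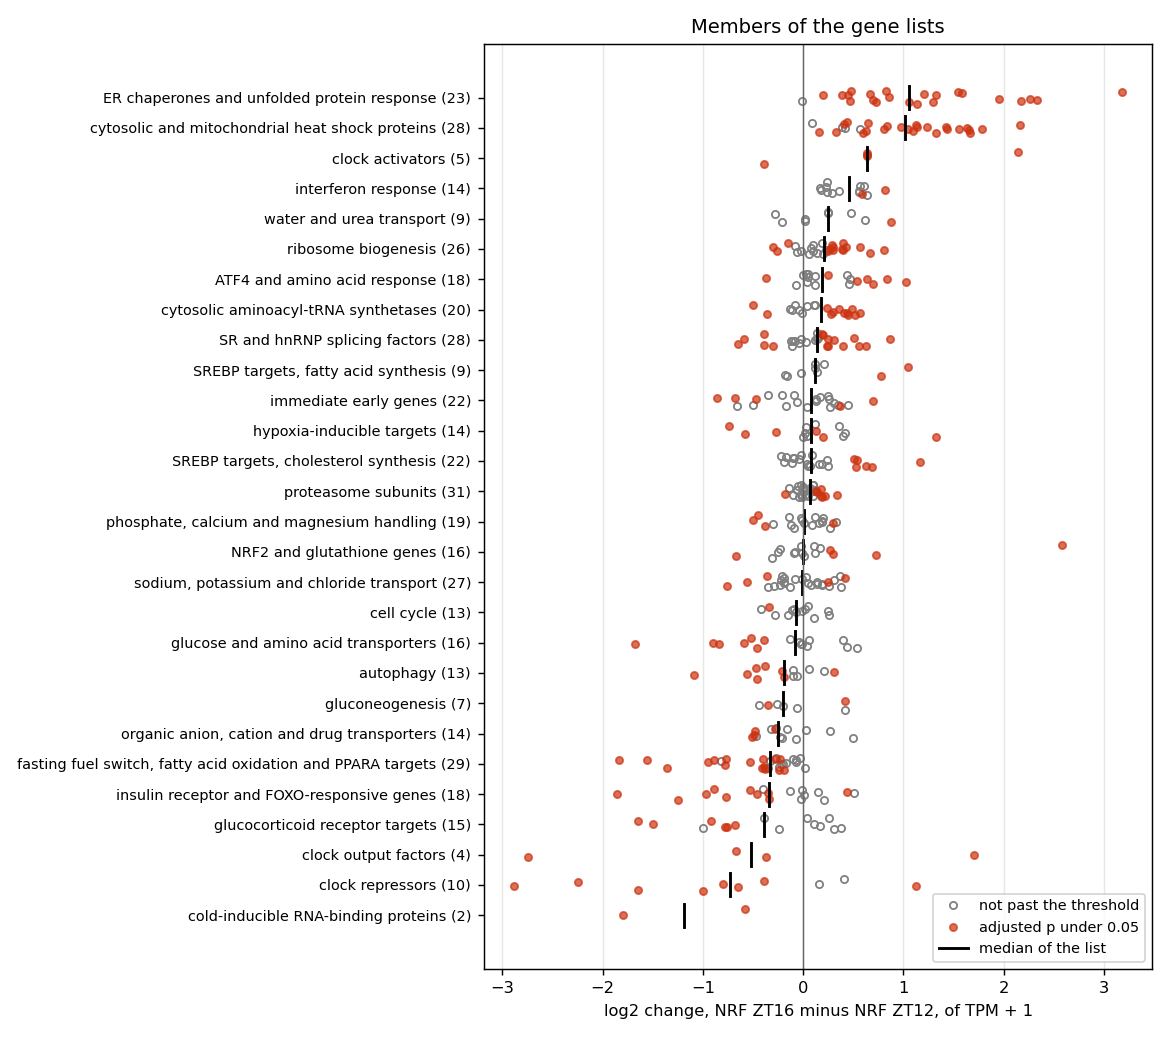
Log2 change from NRF ZT12 to NRF ZT16 of each tested member of the 28 gene lists (number tested in brackets), filled red where the adjusted p was under 0.05 and open grey where not, with the median of each list as a black bar. Nearly all members of the ER and heat shock lists lie right of 0, with medians of 1.06 and 1.01, and the clock repressors spread from -2.88 to 1.12.

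Among genes of the kidney's own transport work, falls were common for glucose and amino acid transporters, while in sodium, potassium and chloride transport, water and urea transport, and phosphate, calcium and magnesium handling the shares called were near or below those over all genes tested (12.2% higher, 17.4% lower). Of 16 glucose and amino acid transporters, 7 fell and 0 rose. Slc6a19 (chr13:73679745-73704865), which takes up neutral amino acids in the proximal tubule, stood at 226, 328, 356 and 238 TPM at ZT12 and 97.7, 72.7, 86.3 and 95.8 TPM at ZT16, a change of -1.67 ± 0.25 (adjusted p = 8.01e-07). The fructose transporter gene Slc2a5 went from 157 ± 13.2 to 87.6 ± 9.46 TPM and the glutamine transporter gene Slc38a3 from 149 ± 38 to 78 ± 9.66 TPM. In sodium, potassium and chloride transport, 2 of 27 rose (Kcnj1 by 0.42, Scnn1a by 0.24) and 3 fell (Usp2, Slc4a4 and Kcnma1), with Usp2, a deubiquitinase under clock control, going from 210.3 ± 4.8 to 124 ± 7.9 TPM. The call of Kcnj1 was lost without the libraries high in inner medulla markers, and those of Scnn1a and Slc4a4 were lost without either set of libraries. The 2 rises were 4 with rescaling by the median of ratios, and 4 genes rose and 5 fell without ZT16 replicate 1, with 5 falling also without ZT12 replicate 4. The call of Kcnma1 was lost without ZT12 replicate 1 and without ZT16 replicates 3 or 4. Of 9 genes of water and urea transport, Avpr2, the vasopressin receptor, rose from 22.4 ± 6.88 to 41.5 ± 11.2 TPM, and Aqp2 had a change of 0.61 ± 0.39 (adjusted p = 0.244). Both belong to the 5 collecting duct markers, whose sum was 1142, 936, 1108 and 998 TPM at ZT12 and 1227, 1768, 1150.2 and 1179 TPM at ZT16. All ZT16 mice were thus above all ZT12 mice in this sum, to which Aqp2 and Avpr2 themselves contribute. Of the 5 markers 1 was called higher, and Aqp2, Aqp3, Fxyd4 and Hsd11b2 overlapped between the times. The part of collecting duct cells in the value of Avpr2 was not tested. Of 19 genes of phosphate, calcium and magnesium handling, Atp2b1 rose and Slc20a2, Vdr and Trpm7 fell, the vitamin D receptor gene Vdr from 244 ± 36.8 to 171 ± 20.04 TPM. Of 14 organic anion, cation and drug transporters, 4 fell (Slc22a4, Abcb1a, Abcc2 and Slc22a5), with 2 left without the libraries high in adipose markers, without those high in inner medulla markers, without ZT12 replicate 2 or without ZT16 replicate 2, and 7 falling without ZT16 replicate 1.

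In the remaining lists fewer members moved, or members moved both ways, and a count near the shares over all genes (12.2% higher, 17.4% lower), such as that of the immediate early genes, says nothing particular of the list. Of 15 glucocorticoid receptor targets, 6 fell and 0 rose. They included Mt2, a metallothionein gene, which stood at 470.3, 443, 568 and 386 TPM at ZT12 and 233, 168, 121 and 151 TPM at ZT16, and Klf9, which went from 195 ± 2.96 to 114 ± 12.6 TPM, whereas Fkbp5 (0.31 ± 0.28, adjusted p = 0.457) and Sgk1 (0.38 ± 0.35, adjusted p = 0.454) did not pass. Of 22 immediate early genes, 2 rose (Atf3, Ier5) and 3 fell (Zfp36, Ier2, Dusp1), with 4 rises under rescaling by the median of ratios, with the deposited values as they stand or without ZT12 replicate 1. The call of Ier5 was lost without ZT12 replicate 2 and that of Dusp1 without ZT12 replicates 2 or 3 or ZT16 replicates 1 or 4. In NRF2 and glutathione genes, 4 of 16 rose (Hmox1, Osgin1, Txnrd1, Gclm) and Nqo1 fell (-0.67 ± 0.14, adjusted p = 0.000276). In hypoxia-inducible targets, 3 of 14 rose and 3 fell, with P4ha1, a prolyl hydroxylase of collagen, going from 44.5 ± 8.73 to 112 ± 15.5 TPM, and 5 rose without ZT16 replicate 1 or with rescaling. In the interferon response, 2 of 14 rose, Rsad2 (0.81 ± 0.12, adjusted p = 7.73e-07) and Ifi44, and the call of Ifi44 was lost without the libraries high in inner medulla markers, while 5 genes rose without ZT16 replicate 4. In the cell cycle list, 0 of 13 rose and Mcm2 fell. Further large falls were in Ell3, Klf11 and 9530057J20Rik, which went from 24.2 ± 4.03 to 8.34 ± 2.64 TPM, 16.9 ± 2.44 to 5.54 ± 0.914 TPM and 117 ± 17.2 to 31 ± 4.22 TPM in that order. The function of 9530057J20Rik is not given in the sources used here.

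To ask which of these changes also followed lights-off without food, the same 4 h were examined in DRF, where ZT12 closes the meal. This DRF change joins the dark with the start of the fast, so a difference from NRF sets food arrival against food withdrawal. Under DRF, 703 genes were higher at ZT16 (5.17%) and 1662 lower (12.2%), or 1048 and 1094 with libraries rescaled by the median of ratios and 856 and 1073 with the deposited values as they stand. Of the 1661 genes that rose under NRF, 181 rose under DRF as well, which is 10.9% of the NRF rises and 25.7% of the DRF rises, and 126 fell. Of the 2368 that fell under NRF, 799 fell under DRF, or 33.7% and 48.1% of each list, and 114 rose. With rescaling the shared rises were 326 and the shared falls 512. Across the 4029 genes called under NRF the changes in the 2 regimens had a Pearson correlation of 0.38, and across all 13609 genes tested it was 0.27, a description over genes that are not independent. The change itself differed between regimens for 2100 genes, 1223 with the greater value under NRF (8.99%) and 877 with the lesser (6.44%). Some of the largest NRF changes outside the ER list were also seen under DRF. Muc19 went from 6.77 ± 1.23 to 23.5 ± 5.62 TPM and Ell3 from 22 ± 4.08 to 9.18 ± 0.809 TPM (SD, n = 4). Hmox1 went from 87.8 ± 31.6 to 311 ± 146 TPM, with groups that overlapped. Klf11, which fell under NRF, rose from 6.21 ± 0.548 to 15.5 ± 4.1 TPM.

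ER chaperone genes rose under DRF too, but by less. Of the ER list 18 of 23 genes rose and 0 fell from DRF ZT12 to ZT16, and of the heat shock list 7 of 28 rose and 0 fell, where 5.17% of all genes tested rose. The interaction passed for 18 of 23 ER chaperones and unfolded protein response genes and for 18 of 28 heat shock genes, all with the greater change under NRF. Sdf2l1 stood at 30.03, 25.9, 49.2 and 31 TPM at DRF ZT12 and 64.8, 58, 51 and 58.8 TPM at DRF ZT16. The groups were apart in DRF as in NRF, but the change was 0.79 against 3.18 under NRF (difference 2.39 ± 0.27, adjusted p = 1.5e-08). The DRF level at ZT12, at the end of the meal, lay above that of NRF. Hspa1a stood at 44.9, 57.3, 32.5 and 85.4 TPM at DRF ZT12 and 46.4, 32.4, 32.7 and 32.8 TPM at DRF ZT16 and had a DRF change of -0.53 ± 0.35 (adjusted p = 0.352). The difference of changes was 2.31 ± 0.50 for Hspa1a and 2.66 ± 0.76 for Hspa1b. Ribosome biogenesis genes had a difference in the same direction for 17 of 26, and 1 the other way. Over all genes tested these shares were 8.99% and 6.44%.

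Insulin and fasting genes with large changes went in opposite directions. Of the insulin receptor and FOXO-responsive genes, 10 of 18 rose and 1 fell under DRF, where 1 rose and 9 fell under NRF. The difference passed for 11, all with the lesser value under NRF. Among all genes tested 5.17% rose and 12.2% fell under DRF, and the difference passed with the lesser value for 6.44%. Igfbp1 stood at 21.3, 19.9, 22 and 9.52 TPM at DRF ZT12 and 75.6, 92.2, 80.2 and 78 TPM at DRF ZT16. All DRF ZT16 mice were above all DRF ZT12 mice, the reverse of NRF, with a change of 2.17 ± 0.22 (adjusted p = 1.06e-09) and a difference of -3.41 ± 0.31 (adjusted p = 5.99e-11). Depp1 stood at 8.07, 10.5, 8.65 and 7.06 TPM at DRF ZT12 and 59.98, 53.9, 41 and 67 TPM at DRF ZT16, with a difference of -4.41 ± 0.70 (adjusted p = 8.59e-06). Angptl4 stood at 22.9, 28.7, 12.8 and 26.3 TPM at DRF ZT12 and 92.8, 74.1, 119 and 65.7 TPM at DRF ZT16, again apart and reversed, with a difference of -3.76 ± 0.60 (adjusted p = 9.52e-06). Pdk4, the kinase that shuts pyruvate out of oxidation, was 15.8 ± 1.37 TPM at DRF ZT12 and 94.7 ± 42 TPM at DRF ZT16 (SD, n = 4), a change of 2.42, whereas its NRF change was -0.82 ± 0.33 (adjusted p = 0.0561). The chemokine gene Ccl5 had a difference of -2.87 ± 0.38 (adjusted p = 3.59e-07).

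Of the genes of the fasting fuel switch, fatty acid oxidation and PPARA targets, the difference passed for 11 of 29, all with the lesser value under NRF, and for 6 without the libraries high in adipose markers, 6 without those high in inner medulla markers and 7 without ZT12 replicate 1. With the deposited values as they stand it passed for 6. For autophagy it passed for 7 with the lesser value and 1 with the greater, and Gabarapl1, which fell under NRF, changed by 0.71 ± 0.09 (adjusted p = 2.02e-07) under DRF. Srebf1 was reversed in the other sense. Srebf1, which encodes the factor itself, stood at 49.4, 27.6, 29.8 and 26 TPM at ZT12 and 64.6, 58, 42.7 and 60.5 TPM at ZT16 under NRF, where ZT12 replicate 1 lay above ZT16 replicate 3, and at 63.8, 59.8, 78.2 and 64.5 TPM at ZT12 and 29.4, 25.7, 23.2 and 33.2 TPM at ZT16 under DRF. Its difference was 2.01 ± 0.21 (adjusted p = 2.24e-09). In cholesterol synthesis the difference passed for 8 of 22 genes, all with the greater value under NRF. Over all genes tested it passed for 8.99% with the greater and 6.44% with the lesser value.

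**Figure D4:**
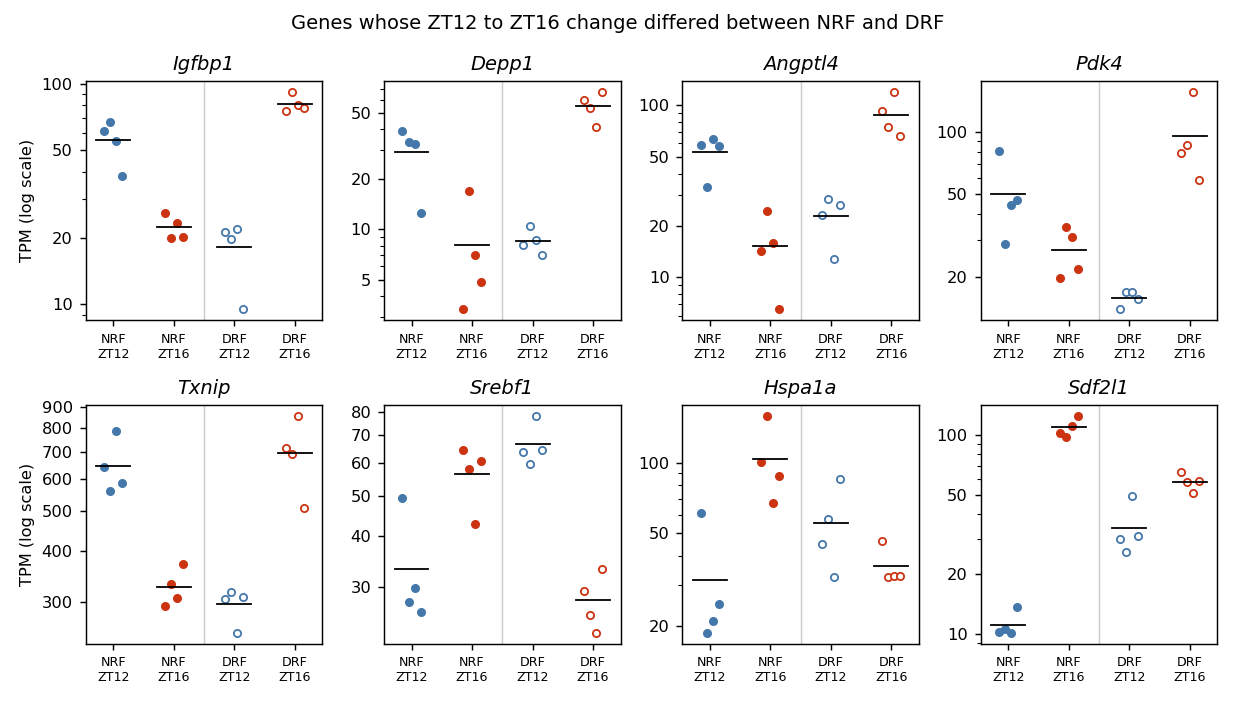
Level in each mouse (TPM, log axis) at ZT12 (blue) and ZT16 (red) under NRF (filled) and DRF (open) for 8 genes, with the mean of 4 mice as a black bar. Igfbp1, Depp1, Angptl4, Pdk4 and Txnip go down under NRF and up under DRF, Srebf1 goes up under NRF and down under DRF, and Sdf2l1 goes up under both. The NRF change of Pdk4 and the DRF change of Hspa1a did not pass the test.

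Among clock genes, 3 of 10 repressors fell and 0 rose under DRF, and 4 of 5 activators rose and 0 fell. Among all genes tested 12.2% fell and 5.17% rose there. Dbp and Ciart fell under DRF too, by 1.81 and 1.20, from a lower level at ZT12 (57.5 ± 15.6 and 10.5 ± 1.02 TPM). For Dbp the difference of changes was -0.94 ± 0.46 (adjusted p = 0.172), which does not show that the changes were alike, and for Ciart it was -1.68 ± 0.28 (adjusted p = 1.66e-05). Over all genes tested the difference passed for 6.44% with the lesser and 8.99% with the greater value under NRF. Of the clock repressors it passed for 4 with the lesser and 1 with the greater value, and for 2 and 0 in that order with the deposited values as they stand. Without the libraries high in adipose markers it passed for 4 with the lesser value and 0 with the greater. Cirbp stood at 29.9, 27, 32.5 and 17.9 TPM at DRF ZT12 and 23.6, 21.7, 19.8 and 18.2 TPM at DRF ZT16, which overlapped, and the difference was -1.47 ± 0.19 (adjusted p = 2.89e-07). Rbm3, the other cold-inducible gene, fell under DRF from 91.8 ± 4.86 to 56.8 ± 2.44 TPM (SD, n = 4), with groups apart. The difference passed for 1 of these 2 genes.

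To ask which changes followed food at another time of day, the NRF change was set beside the DRF change from ZT0 and ZT24 together to ZT4. Under DRF food, 1668 genes were higher at ZT4 (12.3%) and 3048 lower (22.4%), or 2614 and 2208 with rescaling by the median of ratios and 1972 and 2334 with the deposited values. Of the genes that rose under NRF, 816 rose here too (49.1% of the NRF rises, 48.9% of the DRF rises) and 55 fell. Of those that fell under NRF, 1461 fell here too (61.7% and 47.9%) and 53 rose. With rescaling the shared genes were 1334 and 1172. The Pearson correlation across the same 4029 genes, again not independent, was 0.70, and across all genes tested it was 0.52. This DRF change rests on 12 libraries (median SE 0.085) and that at lights-off on 8 (0.098). Their shared counts and correlations are thus not of equal precision. The change at food differed between the regimens for 909 genes, 435 with the greater value under NRF (3.2%) and 474 with the lesser (3.48%). That count was sensitive to single libraries, with 1449 genes without NRF ZT16 replicate 1 and 592 without NRF ZT16 replicate 3.

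With food in the light, the ER list rose in all 23 tested genes and the heat shock list in 21 of 28, where 12.3% of all genes tested rose. Sdf2l1 stood at 116, 80.6, 46.5 and 81.5 TPM at DRF ZT4, against means of 17.7 and 20.2 TPM at DRF ZT0 and ZT24, a change of 1.99 ± 0.17 (adjusted p = 4.29e-13). The difference from NRF passed for 6 ER genes (11 without NRF ZT16 replicate 1 or the 3 libraries high in adipose markers, and 3 without NRF ZT16 replicate 3) and for 3 heat shock genes (8 without NRF ZT12 replicate 1, 6 without NRF ZT12 replicate 4 or the libraries high in adipose markers, and 7 without NRF ZT16 replicate 1), all with the greater change under NRF. Of the fasting fuel switch genes, 24 of 29 fell at DRF food, where 22.4% of all genes tested fell. Igfbp1 had a change that did not pass (-0.46 ± 0.19, adjusted p = 0.0539), and Cirbp changed by -1.32 ± 0.12 (adjusted p = 3.33e-12). Rbm3 had means of 94.5 and 98.2 TPM at DRF ZT0 and ZT24 and 84.6 TPM at DRF ZT4. Of these 2 cold-inducible genes 1 was called lower at DRF food.

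Clock genes mostly changed in opposite directions at the 2 meals. At DRF food 8 of 10 clock repressors rose and 1 fell, against 1 and 7 under NRF. The difference passed for 8 with the lesser value under NRF and 1 with the greater. Among all genes tested 12.3% rose and 22.4% fell at DRF food, and the difference passed for 3.48% and 3.2% in that order. Dbp stood at 15.2, 11.9, 15 and 8.02 TPM at DRF ZT0, 41, 23.4, 16.7 and 10.1 TPM at DRF ZT24 and 79.96, 89.4, 73.5 and 72.4 TPM at DRF ZT4, so that all ZT4 mice were above the rest. The change was 2.25 and the difference from NRF -5.00 ± 0.43 (adjusted p = 7.21e-12). The difference was -4.35 ± 0.26 (adjusted p = 5.85e-17) for Ciart, -3.05 ± 0.33 (adjusted p = 7.18e-09) for Nr1d1 and -2.23 ± 0.28 (adjusted p = 1.46e-07) for Per3. Of the 10 repressors Per1 alone fell at both, by 1.65 under NRF and 1.29 at DRF food. Nfil3 went the other way from Dbp, with 17.5, 11.7, 14.9 and 16.8 TPM at DRF ZT4 and means of 39 and 30.9 TPM before, and a difference of 2.84 ± 0.25 (adjusted p = 1.47e-11).

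Genes of cholesterol synthesis rose more at DRF food. Of the SREBP targets of cholesterol synthesis, 19 of 22 rose there against 6 under NRF, and 15 had the lesser change under NRF. Among all genes tested 12.3% rose at DRF food and 3.48% had the lesser change under NRF. Fdps changed by 1.64 ± 0.10 (adjusted p = 4.51e-17) at DRF food, with a difference of -1.01 ± 0.15 (adjusted p = 1.08e-05). Ypel2 and Gsta1 also had large differences (2.44 ± 0.16, adjusted p = 2.6e-15, and -1.98 ± 0.41, adjusted p = 0.00146): Ypel2 rose under NRF and fell at DRF food, where it went from 46.2 ± 4.62 and 40.2 ± 8.02 TPM to 11.5 ± 0.968 TPM, and Gsta1, a glutathione transferase gene, rose at DRF food to 37.6 ± 10.5 TPM. The interferon-inducible GTPase genes Tgtp1, Gbp6 and Iigp1 had differences of 2.40, 2.22 and 2.21, but NRF ZT16 replicate 1 held 139.6 TPM of Tgtp1 against at most 42.8 TPM in the other NRF ZT16 mice, and DRF ZT0 was uneven as well (95.7, 21.2, 63.5 and 48.5 TPM). Without the 3 libraries high in adipose markers their adjusted p was 0.133, 0.0847 and 0.151.

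**Figure D5:**
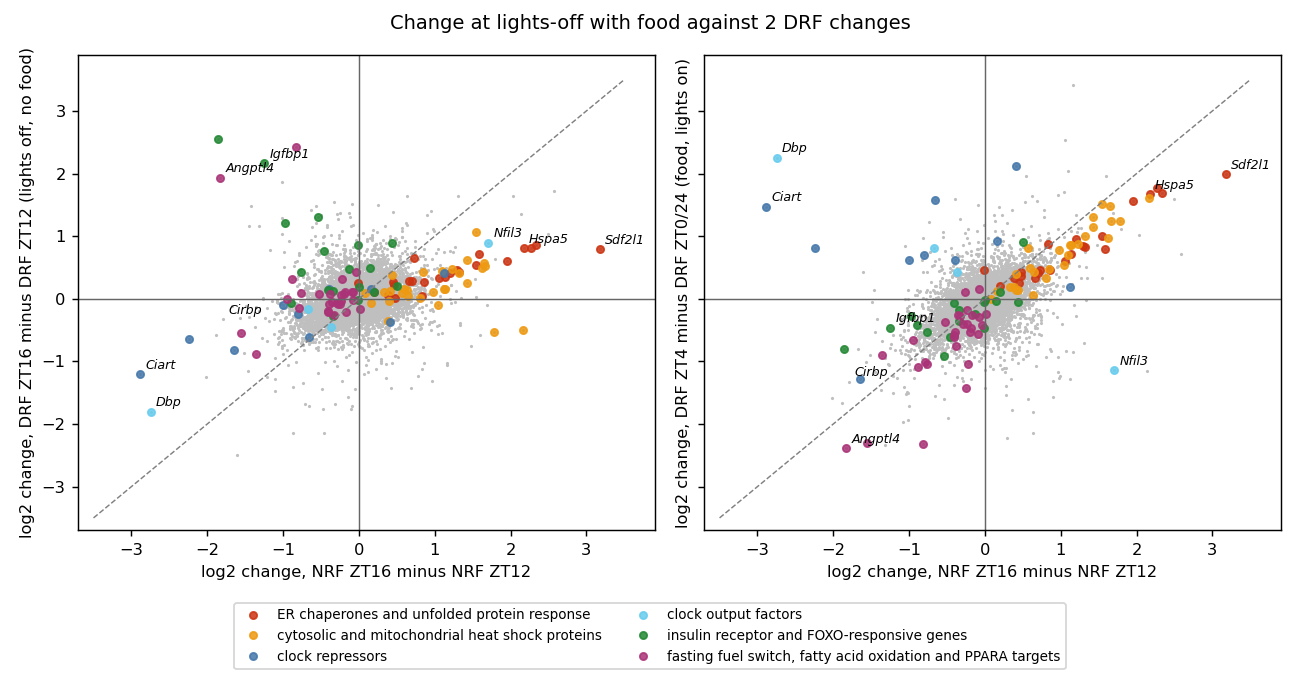
Log2 change from NRF ZT12 to ZT16 (x axis) against the DRF change at lights-off without food (left, y axis) and at food with lights-on (right, y axis), 1 grey dot per tested gene, with 6 gene lists in colour and a dashed line of equal change. On the left Angptl4 and Igfbp1 lie in the upper left and most ER genes lie below the line, and on the right most ER, heat shock and fasting genes lie nearer the line while Dbp, Ciart and Nfil3 lie in the opposite corners.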

How the data were processed

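RNA of 1 kidney sample per mouse (56 female mice, 14 groups of 4) was poly(A)-selected and sequenced paired-end on a BGISEQ-500 by the authors, and HISAT2, Bowtie2 and RSEM with the builds mm10 and GRCm38.p6 stand in the submitters' processing notes. The members and gene lists of this report were chosen with earlier results of these data known.

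The deposited table is named TPM, but its values were treated as a score, because the authors' numbers proved to be log2(CPM + 1) divided by gene length and rescaled to a sum of 999145 to 999753 per library. Taken as linear levels they would compress differences. The reads behind them were recovered: 97.6% of 17027 genes gave whole reads (within 0.05) or hundredths (within 0.0015), as RSEM estimates do. They did so at the annotated length for 13840 and 1669 genes. For 859 and 254 genes the length was searched for this agreement, which is then no check. In all, 16783 genes were turned into linear TPM. Those left out include 14 with an unchecked length and a median of at least 30000 reads, so TPM is per 1 M transcripts of the genes used. Each library held 23.3 M to 26.2 M recovered reads. Averaged over genes, the spread between mice of NRF ZT12 or NRF ZT16 exceeded counting error, which need not hold for genes with few reads. No pair of replicates within NRF ZT12 or NRF ZT16 agreed within counting noise.

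Genes with a mean of at least 1 TPM were tested on log2(TPM + 1) in 1 limma fit (version 3.58.1, R 4.3.3) of all 14 group means with a mean-variance trend, and p-values were adjusted by Benjamini-Hochberg over 13609 genes. Fold changes on this scale understate those of low genes. Contrasts were NRF ZT16 against ZT12, the DRF changes, and the differences between them. Scripts were tested on simulated data. The text names the 12 largest rises and 12 largest falls (mean of at least 10 TPM, groups apart), the 4 members of each list with the smallest p and any called with a log2 change of at least 1, and the 5 largest differences each way; other members are examples chosen with their values seen, and a few genes that the rule names are not reported here. Alternatives were another scaling, the deposited values as they stand, a pseudocount of 0.1, a mean of at least 5 TPM or no filter, limma voom, only the groups compared, a replicate block, a minimum change of 1.5 times and each replicate left out. Leaving out the libraries high in adipose or inner medulla markers was added after seeing the data. Gene spans are in GRCm38 and promoter windows are RefSeq's (GRCm38.p6).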

Additional observations from a re-analysis of the deposited data

Results flagged for a closer look

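Among the groups of 4 NRF mice examined, 9 of 102 had 1 mouse farther from the rest than Dixon's limit for 4 samples allows, and chance alone gives about 1 in 20. At ZT12, replicate 4 stood above the others for Sdf2l1 (13.6 TPM) and Manf (41.02 TPM), 2 chaperone genes of the ER. Replicate 1 stood above the others for the heat shock genes Hspa1a (60.8 TPM) and Hspa1b (150.5 TPM) and for Srebf1 (49.4 TPM). The same replicate was highest in the sum of adipose markers (3498 TPM), and replicate 3 was highest in the sum of liver markers (547 TPM). At ZT16, replicate 1 was highest for Tgtp1 (139.6 TPM) and replicate 2 for the sum of collecting duct markers (1768 TPM).

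The interaction test found genes whose change from ZT12 to ZT16 differed between NRF and DRF, and the largest differences each way are given. The NRF change exceeded the DRF change by 2.66 for Hspa1b, 2.39 for Sdf2l1, 2.31 for Hspa1a and 2.01 for Srebf1 on the log2 scale. The difference was -4.41 for Depp1, -3.76 for Angptl4, -3.41 for Igfbp1, -3.24 for Pdk4 and -2.87 for Ccl5. The same test found genes whose change at food differed between NRF and DRF. The NRF change was greater by 2.84 for Nfil3, 2.44 for Ypel2, 2.40 for Tgtp1, 2.22 for Gbp6 and 2.21 for Iigp1. The difference was -5.00 for Dbp, -4.35 for Ciart, -3.05 for Nr1d1, -2.23 for Per3 and -1.98 for Gsta1.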

How the results depend on the processing

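In the main fit 4029 genes differed between NRF ZT16 and ZT12. The change differed from DRF for 2100 genes at lights-off and for 909 at food. With only the groups compared in the fit, fewer were called (2369, 1559 and 467 in that order). A minimum change of 1.5 times left 701, 618 and 309. Leaving out 1 mouse gave 3464 to 4427, 1725 to 2325 and 592 to 1449 genes, the last from leaving out NRF ZT16 replicate 3 or 1. Without the libraries high in inner medulla markers the last count was 601. The replicate numbers were not those of shared animals, and same-numbered NRF mice did not deviate together (correlations of -0.13, -0.63, -0.21 and 0.30, with no replicate at ZT16 closest to its own number at ZT12). With the number as a replicate block the counts were 386, 1207 and 349. Over 174 gene results, no direction turned under any alternative for a called gene. Calls were lost for 65 with the block, 12 without the libraries high in adipose markers, 11 with only the groups compared, 8 without those high in inner medulla markers, 6 with the deposited values, 1 with another scaling, 1 with no filter and at most 4 when 1 mouse was left out. A pseudocount of 0.1 and limma voom lost 0, as did a mean of at least 5 TPM among the genes it tested, which left out Atf3, Bhlhe41, Ccnb1, Chac1, Derl3 and Kcnma1. The causes were not tested. Depth limits genes near 1 TPM, which rest on few reads.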
